A study of Mus musculus with 12 samples.

Results

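The subject is the departure from additivity between stanniocalcin-1 and TGF-β1 in NIH-3T3 cells, an immortalised line of mouse embryonic fibroblasts. It was read from all 12 of the 12 RNA sequencing libraries, which formed 4 groups of 3. Con libraries received PBS, STC1 libraries recombinant stanniocalcin-1 protein at 100 ng/mL, TGFb1 libraries TGF-β1 at 10 ng/mL, and TS libraries both proteins, in each case for 24 h. The series text calls the 3 libraries of a group biological replicates. The labels name no separate culture dates or batches, so p-values measure the spread between these libraries. The interaction is the STC-1 difference with TGF-β1 present minus the same difference without it, (TS - TGFb1) - (STC1 - Con), on the log2 scale. A value of 0 means that the combined response equals the sum of the single responses. A gene is called sub-additive where the combined response, TS with Con, falls short of that sum in its own direction, and super-additive where it goes beyond it.

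TGF-β1 is a secreted cytokine that binds a pair of receptor kinases and acts through SMAD transcription factors, and in fibroblasts it is best known for raising matrix and contractile genes. Stanniocalcin-1 is a secreted glycoprotein first described as a calcium and phosphate regulating hormone in fish, and the mammalian protein inhibits the protease PAPP-A. The study title places it in relation to scar formation, PI3K/AKT signalling and immune genes. When a pair of signals converge on shared steps, a combined response smaller than the sum is a common pattern in textbook pharmacology, and a larger one is called synergy.

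The libraries held between 16867600 and 18521800 expected counts, which are estimated read counts per gene that need not be whole. The first principal component of 6151 abundant genes ran from -4.86 to -2.03 in Con, from -1.19 to 0.572 in STC1, from 1.19 to 2 in TGFb1 and from 1.36 to 2.44 in TS. The median SD between libraries of a group was 0.0377 to 0.0411 in log2 units, with TS the widest. Fibroblast markers were abundant in every library, with a summed level of 18950 to 21540 CPM over 12 genes, where CPM are counts scaled to a common library size after TMM normalization. Fap, an activated fibroblast marker, was near 0 with a mean of 0.0388 CPM. Of 10 macrophage markers 9 were in the table and summed to 8.22 to 10.6 CPM. Most of it was Cd14 (mean 5.04 CPM) and Cd68 (mean 3.50 CPM), and Adgre1 had a mean of 0.00472 CPM. The sum was 0.396 to 1.302 CPM for 5 of 10 epithelial markers, 2.40 to 3.80 CPM for 8 of 10 endothelial markers, and 32.5 to 36.7 CPM for 7 of 10 adipocyte markers, most of it Lpl.

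No gene departed from additivity at an adjusted p under 0.05. By the quasi-likelihood test of edgeR with Benjamini-Hochberg adjustment, 0 of 11763 genes (0%) were called, and the lowest adjusted p was 0.132, shared by Adamts1, Plau, Appbp2 and Smoc2. DESeq2 called 0, with 459 genes at an unadjusted p under 0.05, and limma-voom 0, with 966. With no low count filter edgeR called 8 genes, and leaving out a library gave between 0 and 2. With the replicate number fitted as a block it called Adamts1, Smoc2, Col3a1, Igsf10 and Plau. The labels do not say that this number marks a shared batch. In the edgeR test 975 genes (8.29%) had an unadjusted p under 0.05, 515 with a positive (4.38%) and 460 with a negative interaction (3.91%), against 588 expected by chance. The interaction was measured closely for abundant genes. Among 6158 genes above a log2 CPM of 5 the median standard error (SE) was 0.0557, and the 95% interval lay within a 1.5-fold departure for 6155 of them and within a 1.2-fold departure for 5745 (93.3%). These intervals are for each gene alone and are not adjusted for the number of genes. Departures smaller than these intervals could not be resolved with these libraries. Over 11511 genes the interaction had a Spearman correlation of 0.275 with the GC content of the transcript and 0.0136 with its length. With that trend removed 0 genes were called, with a lowest adjusted p of 0.065. The part of GC content in single interactions was not tested beyond these values.

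The combined response was called for 713 of 11763 genes (6.06%), of which 374 rose (3.18%) and 339 fell (2.88%) in TS against Con. Stanniocalcin-1 alone changed 6 genes (0.051%) and TGF-β1 alone 469 (3.99%). Of these 713 genes, 531 were sub-additive and 182 super-additive, or 74.5% sub-additive. The split was alike for genes that rose (281 and 93) and genes that fell (250 and 89), and over all tested genes 56.9% were sub-additive. The weights of these contrasts are orthogonal, but Con and TS libraries enter both of them. The split is therefore given as a description with no test. In the direction of the combined response, the median single response of the 713 genes was 0.071 with stanniocalcin-1 and 0.11 with TGF-β1, both against Con, and the median sum was 0.18. The median combined response was 0.14 and the median interaction -0.037. Both single responses pointed the same way as the combined one in 690 of the 713 genes, and in 7233 of all 11763 tested genes. The single and combined responses subtract the same Con libraries, and the 713 genes were picked by the combined one. Shared signs are therefore favoured beforehand and are described with no test. Among the 531 sub-additive genes the combined response lay between the larger single response and the sum in 380. In 151 it was smaller than the larger single response. Among the sub-additive of all tested genes these counts were 1652 and 5041.

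**Figure D1:**
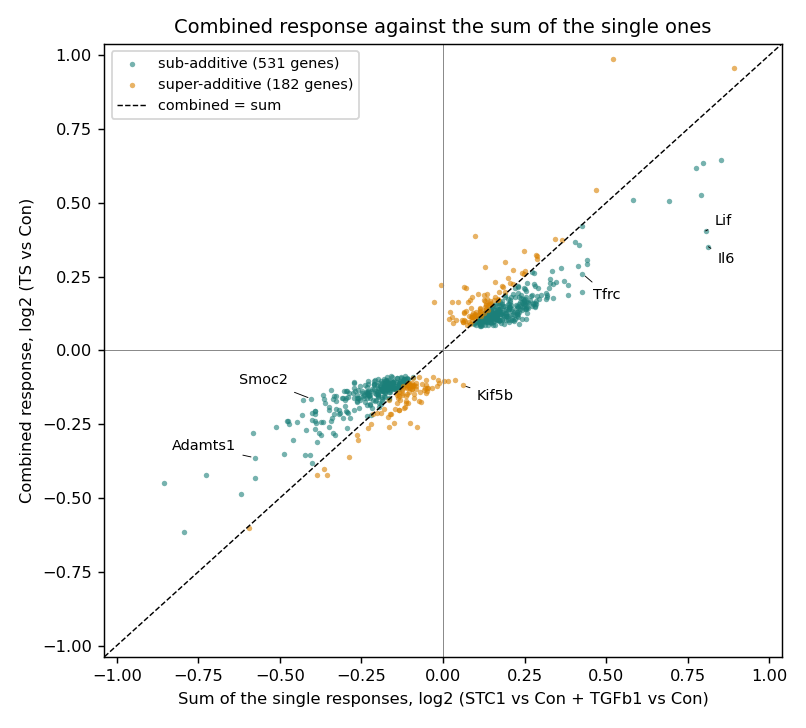
The sum of the single log2 responses (STC1 with Con plus TGFb1 with Con, horizontal axis) is plotted against the combined log2 response (TS with Con, vertical axis) for the 713 genes called in TS with Con. The dashed line marks additivity, and the 531 sub-additive genes lie on the side of it nearer the horizontal zero line. Con libraries enter both axes.

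The share of sub-additive genes depended on which libraries were kept. It was 59.5% without TS replicate 3 (578 genes called), 66.0% without TS replicate 2 (556 called), 81.0% without Con replicate 2 (421 called) and 82.1% without Con replicate 3 (708 called). Without Con replicate 1 the called genes dropped to 276 and without TS replicate 1 to 351, with 74.3% and 71.5% sub-additive. Sub-additive genes were the larger class in each of the 12 fits that left out a library and with the GC and length trend removed (369 of 497, 74.2%).

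**Figure D2:**
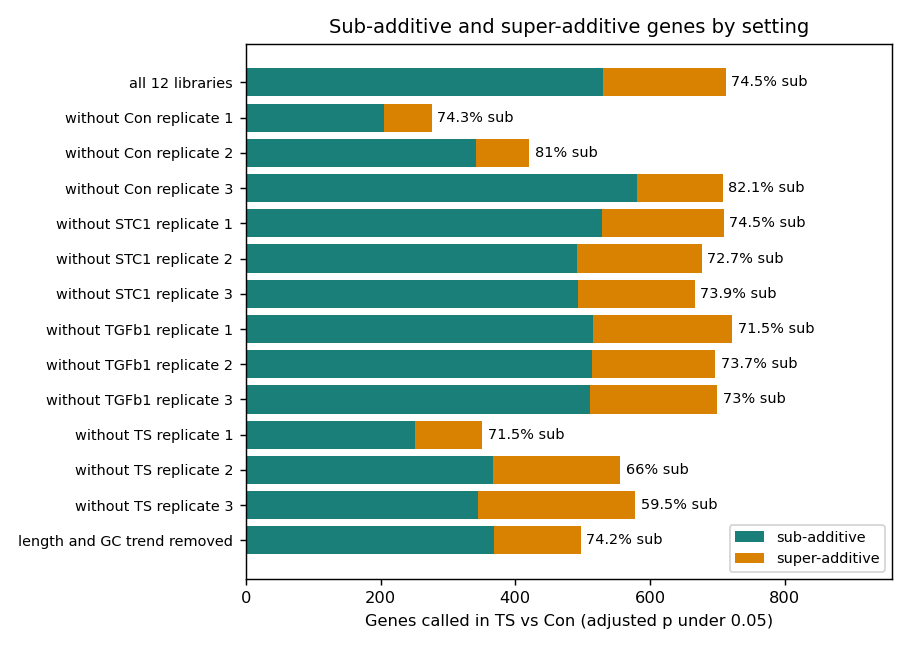
Bars give the number of genes called in TS with Con (horizontal axis, adjusted p under 0.05) with all 12 libraries, without each library in turn, and with the length and GC trend removed, divided into sub-additive and super-additive genes. The sub-additive class was the larger in every bar, from 59.5% to 82.1%.

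Among genes that fell with both proteins, the smallest interaction p belonged to Adamts1, which encodes a secreted metalloprotease that cleaves the proteoglycans aggrecan and versican. Its level was 312, 289.5 and 301 CPM in Con, 277, 250.2 and 260.2 in STC1, 237, 224 and 232 in TGFb1, and 229, 238 and 233 CPM in TS libraries. Each treated group lay below Con without overlap, and TS libraries overlapped TGFb1 libraries. The log2 response was -0.20 with stanniocalcin-1 (adjusted p = 0.000596), -0.38 with TGF-β1 (adjusted p = 5.66e-13) and -0.36 with both (adjusted p = 3.51e-12), against a sum of -0.58. The interaction was 0.21 (SE 0.0444, 95% interval 0.13 to 0.30, adjusted p = 0.132). An additive response would have given 202 CPM, below each TS library. Adamts1 was called by edgeR with no low count filter (adjusted p = 0.00318), without STC1 replicate 1 (0.00687) and without Con replicate 2 (0.0363), and over all alternatives its adjusted p ranged from 0.00318 to 0.475. Its relative Adamts5, an aggrecan-cleaving protease gene, had responses of -0.14, -0.26 and -0.27 in the same order, each called, with an interaction of 0.13 (SE 0.0422, adjusted p = 0.361).

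The promoter windows of Adamts1 and of Appbp2, the genes with the smallest p for a positive and a negative interaction, are shown for their sequence context. They come from RefSeq on the mouse build GRCm38.p6, whereas the counts were made on GRCm39. Each window holds 300 bases around the annotated start, 5′ to 3′ on the gene's strand, and capitals mark the SMAD core motif CAGAC or the AP-1 motif TGANTCA on either strand. The Adamts1 window lies on the minus strand at chr16:85803064-85803363 and the Appbp2 window on the minus strand at chr11:85235071-85235370.
Adamts1: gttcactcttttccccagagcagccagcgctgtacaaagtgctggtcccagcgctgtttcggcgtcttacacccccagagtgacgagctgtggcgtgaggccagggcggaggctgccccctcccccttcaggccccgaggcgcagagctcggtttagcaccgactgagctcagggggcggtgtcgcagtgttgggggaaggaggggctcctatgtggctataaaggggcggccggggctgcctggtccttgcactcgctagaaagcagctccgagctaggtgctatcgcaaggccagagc
Appbp2: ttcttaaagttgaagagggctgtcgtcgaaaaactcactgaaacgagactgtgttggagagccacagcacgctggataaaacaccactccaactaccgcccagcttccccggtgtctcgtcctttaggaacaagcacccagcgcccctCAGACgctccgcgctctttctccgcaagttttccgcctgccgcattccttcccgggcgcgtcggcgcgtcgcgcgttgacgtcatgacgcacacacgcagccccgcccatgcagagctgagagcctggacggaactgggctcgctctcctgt
The Appbp2 window holds 1 match to CAGAC, and the Adamts1 window holds neither motif. CAGAC occurs in 49.6% of 32851 promoter windows and TGANTCA in 7.81%. Of the 20 genes with the smallest interaction p, 14 matched the table, and 13 of their 22 windows held CAGAC and 2 TGANTCA. These are matches of letters, and binding was not measured.

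Smoc2, which encodes a secreted calcium-binding matrix protein of the SPARC family, stood at 105, 96.9 and 103 CPM in Con, 97.1, 89.5 and 94.0 in STC1, 84.2, 84.8 and 82.5 in TGFb1 and 95.4, 86.3 and 90.9 CPM in TS libraries. All TS libraries were above all TGFb1 libraries and below all Con libraries. The difference of TS from TGFb1, 0.12 in log2, was not called (adjusted p = 0.626), and the gene was picked for a small interaction p. Smoc2 fell by 0.28 with TGF-β1 (adjusted p = 1.38e-06) and by 0.16 with both proteins (adjusted p = 0.00388), with an interaction of 0.24 (SE 0.0542, adjusted p = 0.132).

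Pdgfra, the gene of a receptor for platelet-derived growth factor that feeds into PI3K, was far more abundant. It stood at 1394, 1354 and 1372 CPM in Con, 1302, 1242 and 1254 in STC1, 1211, 1143 and 1210 in TGFb1 and 1198, 1247 and 1211 CPM in TS libraries. The TS and TGFb1 libraries overlapped, and the additive expectation of 1095 CPM lay below all of them. Its interaction was 0.15 (SE 0.0373, 95% interval 0.08 to 0.23, adjusted p = 0.165). Igsf10, an immunoglobulin superfamily gene, had responses of -0.15 (adjusted p = 0.0884), -0.19 (adjusted p = 0.00215) and -0.14 (adjusted p = 0.0261) and an interaction of 0.21 (SE 0.0541, adjusted p = 0.301).

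Among genes that rose with both proteins, Tfrc, the transferrin receptor gene of cellular iron uptake, stood at 166, 174 and 171 CPM in Con, 187, 193 and 192 in STC1, 192, 206 and 214 in TGFb1 and 206, 206 and 199 CPM in TS libraries. All treated libraries were above Con, and TS libraries lay within the range of TGFb1 libraries. Its responses were 0.17 (adjusted p = 0.0154), 0.26 (adjusted p = 8.49e-08) and 0.26 (adjusted p = 4.83e-08), and the interaction was -0.17 (SE 0.0447, adjusted p = 0.301). Arhgdib followed the same course at 0.13 (adjusted p = 0.0472), 0.19 (adjusted p = 3.52e-06) and 0.17 (adjusted p = 1.61e-05), with an interaction of -0.14 (SE 0.0384, adjusted p = 0.301). Spp1, the osteopontin gene, had a combined response of 0.11 (adjusted p = 0.011) below its TGF-β1 response of 0.17 (adjusted p = 3.74e-05), and an interaction of -0.15 (SE 0.0392, adjusted p = 0.301).

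The largest sub-additive values among the cytokine genes were those of Lif and Il6, members of the interleukin-6 family. Lif stood at 12.6, 14.3 and 13.4 CPM in Con, 14.9, 17.9 and 15.7 in STC1, 17.2, 20.8 and 20.5 in TGFb1 and 17.5, 17.7 and 18.2 CPM in TS libraries. Its combined response was 0.40 (adjusted p = 0.000622) against a sum of 0.80, with an interaction of -0.40 (SE 0.110, adjusted p = 0.301). Il6 stood at 6.34, 7.46 and 5.79 CPM in Con, 9.33, 8.32 and 9.73 in STC1, 8.002, 8.48 and 8.11 in TGFb1 and 8.10, 8.38 and 8.50 CPM in TS libraries. All treated libraries exceeded Con, and TS libraries overlapped both single treatments. The sum of the Il6 responses was 0.81, the combined response 0.35 (adjusted p = 0.0339) and the interaction -0.46 (SE 0.145, 95% interval -0.75 to -0.17, adjusted p = 0.354). Both genes are weakly expressed, and their SE was above the median of 0.0557 among abundant genes.

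**Figure D3:**
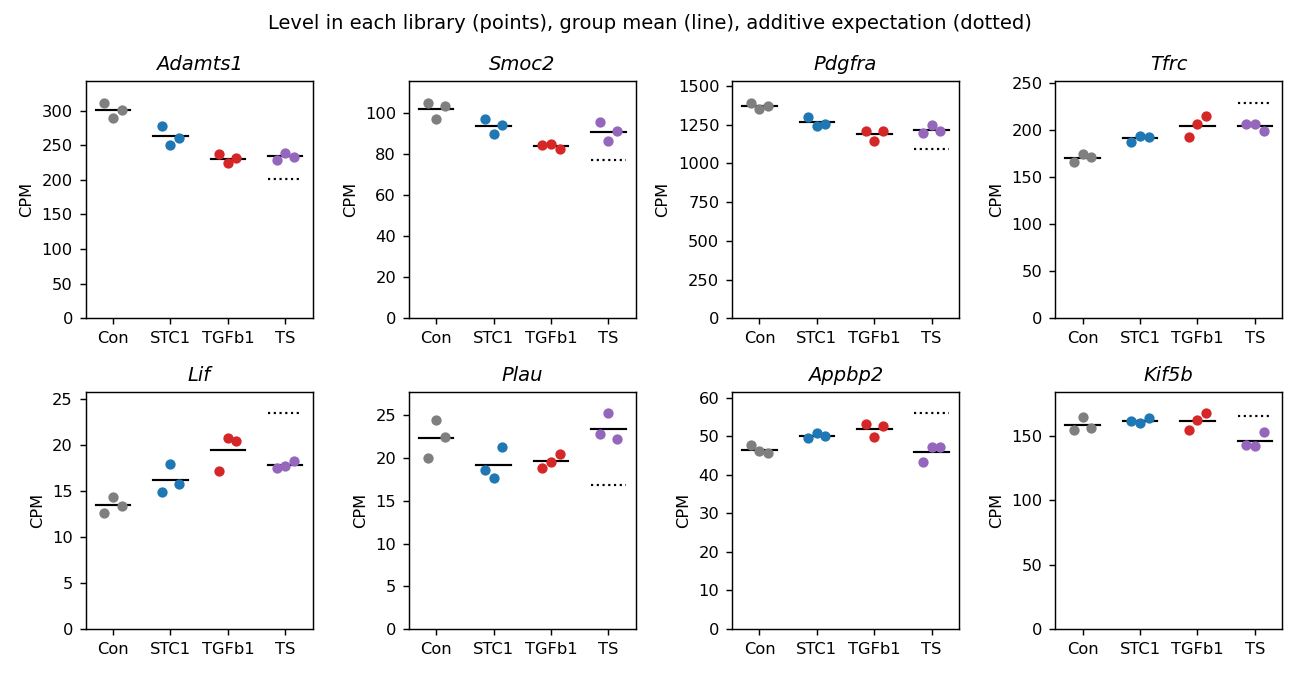
CPM (vertical axes, from 0) is plotted for 8 genes in the Con, STC1, TGFb1 and TS libraries, with points for single libraries, solid lines for group means (n = 3) and a dotted line at the level that additive log2 responses would give in TS. For Adamts1, Smoc2, Pdgfra, Tfrc and Lif the TS libraries lie between Con and the dotted line, for Plau and Appbp2 around Con, and for Kif5b below Con.

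In a further set of genes both single responses pointed one way and the combined level stood nearer Con. None was called in TS with Con, so they are not classed as sub- or super-additive. These genes were picked for a small interaction p, a choice that favours this pattern, so the pattern is described and not tested. Plau, the gene of urokinase, which activates plasminogen, stood at 19.99, 24.5 and 22.5 CPM in Con, 18.7, 17.7 and 21.3 in STC1, 18.8, 19.5 and 20.5 in TGFb1 and 22.8, 25.3 and 22.2 CPM in TS libraries. All TS libraries were above all libraries of the single treatments, while Con overlapped each of the other groups. Its responses were -0.21 (adjusted p = 0.242), -0.18 (adjusted p = 0.147) and 0.073 (adjusted p = 0.62), and the interaction of 0.47 (SE 0.102, 95% interval 0.27 to 0.67, adjusted p = 0.132) was the largest among the 20 genes with the smallest p. It was called with no low count filter, with the replicate number as a block, without Con replicate 1 and without STC1 replicate 3.

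Appbp2, which encodes a protein that binds the amyloid precursor protein, showed the opposite order. It stood at 47.6, 46.3 and 45.6 CPM in Con, 49.5, 50.8 and 50.1 in STC1, 53.04, 49.9 and 52.7 in TGFb1 and 43.2, 47.3 and 47.1 CPM in TS libraries. The libraries of both single treatments were above all Con and TS libraries. Its interaction was -0.29 (SE 0.0641, adjusted p = 0.132). Zyx, the gene of the focal adhesion protein zyxin, had single responses of -0.082 and -0.071, a combined response of 0.014 and an interaction of 0.17 (SE 0.0439, adjusted p = 0.301), and it was called without Con replicate 3. Ubtd1 had an interaction of 0.41 (SE 0.104), and Rsrp1, which encodes an arginine- and serine-rich protein, had 0.23 (SE 0.0549). Ablim1, an actin-binding LIM protein gene, had 0.35 (SE 0.0838) and Septin6, a septin filament gene, 0.27 (SE 0.0727), with adjusted p between 0.152 and 0.301 for these 4. Negative values were found for Atad1, an ATPase gene of the outer mitochondrial membrane (-0.19, SE 0.0440), the DNA repair exonuclease gene Exo1 (-0.25, SE 0.0626) and the kinase gene Oxsr1 (-0.18, SE 0.0474). A negative value was also found for Serpina3i (-0.39, SE 0.102), with adjusted p between 0.151 and 0.288 for these 4. Serpina3i belongs to a cluster of similar serpin genes, so its count is uncertain where reads could be split between copies.

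Of the 120 genes called in TS with Con that had an unadjusted interaction p under 0.05, 109 were sub-additive and 11 super-additive. Over all 975 tested genes at that p, 682 had an interaction opposite in sign to TS with Con and 293 one of the same sign. Sub- and super-additive genes were not tested for a difference in strength. Kif5b, the kinesin-1 heavy chain gene, had the smallest p among the super-additive genes. It stood at 155, 165 and 156 CPM in Con, 161, 160.2 and 164 in STC1, 155, 163 and 168 in TGFb1 and 143, 142 and 153 CPM in TS libraries. All TS libraries were below all others. The super-additive genes were picked for a called combined response and a small interaction p, a choice that favours such separation. For Kif5b, TS differed by -0.15 from TGFb1 (adjusted p = 0.151) and by -0.15 from STC1 (adjusted p = 0.0193). Kif5b fell by 0.12 with both proteins (adjusted p = 0.0203) while the single responses were 0.030 each (adjusted p = 0.8 and 0.715), with an interaction of -0.18 (SE 0.0466, adjusted p = 0.288). Tmed7, a cargo transport gene of the early secretory pathway, and the galectin-like gene Lgalsl had combined responses of -0.099 and -0.10 and interactions of -0.14 (SE 0.0444) and -0.12 (SE 0.0434). Fam102b had -0.10 and -0.11 (SE 0.0436) in the same order.

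In the upward direction Aimp1, a scaffold gene of the tRNA synthetase complex, stood at 74.7, 72.2 and 75.0 CPM in Con, 73.2, 74.0 and 75.4 in STC1, 75.5, 77.3 and 75.4 in TGFb1 and 83.3, 83.3 and 82.2 CPM in TS libraries. The TS libraries were above all 9 others, which overlapped among themselves, a separation that the choice of these genes favours. For Aimp1, TS differed by 0.12 from TGFb1 (adjusted p = 0.56) and by 0.16 from STC1 (adjusted p = 0.025). Aimp1 rose by 0.16 with both proteins (adjusted p = 0.00247), and the interaction was 0.12 (SE 0.0521, adjusted p = 0.495). Emc4, a subunit gene of the ER membrane protein complex, had an interaction of 0.19 (SE 0.0727), the polo-like kinase gene Plk3 of 0.23 (SE 0.1001) and the ribosomal protein gene Rpl36 of 0.088 (SE 0.0424), the last being uncertain because ribosomal protein genes have processed pseudogenes. With the GC and length trend removed the Rpl36 interaction was 0.022. The adjusted p of these super-additive genes other than Kif5b lay between 0.361 and 0.584.

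By size rather than p, the largest sub-additive interaction among the 713 genes was that of Il6 and the largest super-additive one that of Nup210l, which was named after its values were seen. At a mean of only 24 counts, Nup210l had an interaction of 0.47 (SE 0.356, adjusted p = 0.783).

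**Figure D4:**
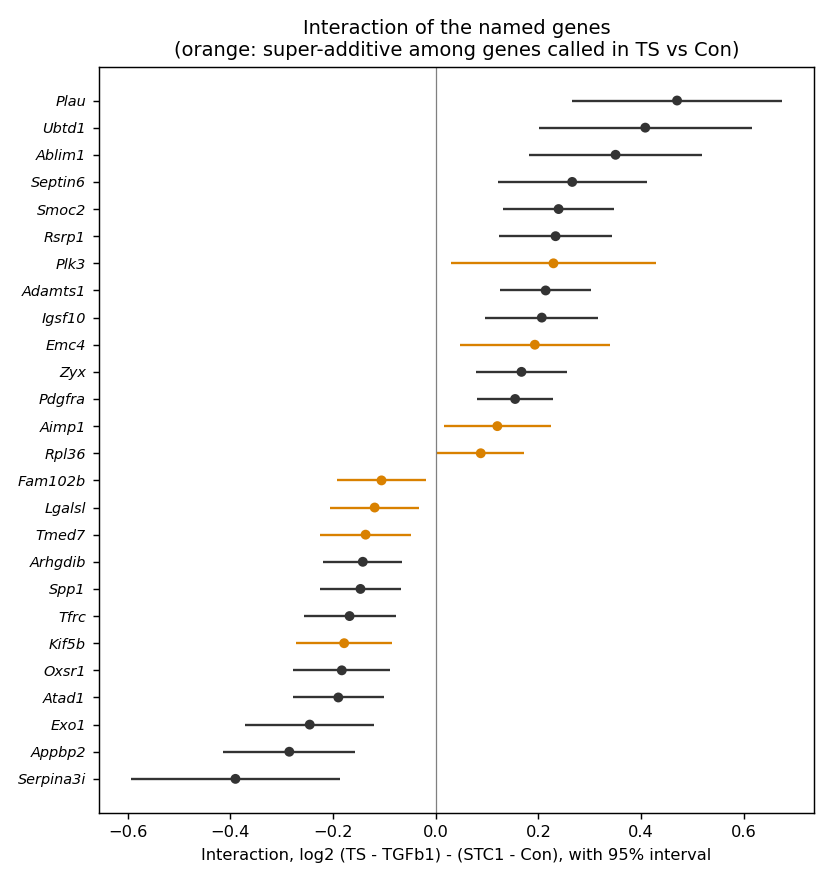
Interactions in log2 units (horizontal axis, points) with 95% intervals (lines, not adjusted for the number of genes) are shown for genes with the smallest p in each direction and for 8 super-additive genes, in orange. Among the genes drawn, Plau has the largest positive value at 0.47 and Serpina3i the largest negative value at -0.39.

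None of the genes most often read as scar markers was called in the interaction. Acta2, the smooth muscle actin gene of myofibroblasts, stood at 391, 386 and 395 CPM in Con, 375, 386 and 379 in STC1, 371, 337 and 342 in TGFb1 and 362, 363 and 370.0 CPM in TS libraries. It fell with TGF-β1 and with both proteins, and the interaction was 0.10 (SE 0.0403, 95% interval 0.02 to 0.18, adjusted p = 0.482). Col3a1, a fibrillar collagen gene, had an interaction of 0.24 (SE 0.0803, adjusted p = 0.483) and was called with no low count filter. For the collagen I chains the interaction was 0.11 for Col1a1 (SE 0.0882, adjusted p = 0.81) and 0.077 for Col1a2 (SE 0.0411, adjusted p = 0.639), and for the fibronectin gene Fn1 it was 0.085 (SE 0.0379, adjusted p = 0.518). With the GC and length trend removed these 3 values were 0.050, 0.029 and 0.042. Among textbook TGF-β targets, Ccn2, the connective tissue growth factor gene, had an interaction of -0.098 (SE 0.0585, adjusted p = 0.683) and the feedback inhibitor gene Smad7 0.030 (SE 0.136, adjusted p = 0.969). Neither was called with TGF-β1 alone, at 0.054 (adjusted p = 0.54) for Ccn2 and 0.14 (adjusted p = 0.482) for Smad7. Neither was called with both proteins, at -0.029 (adjusted p = 0.773) and 0.23 (adjusted p = 0.153). The retromer gene Vps26b had 0.13 (SE 0.0560, adjusted p = 0.5). The genes of the added proteins, Stc1 and Tgfb1, had -0.10 (SE 0.137) and -0.15 (SE 0.0995), with adjusted p of 0.891 and 0.73.

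By gene list, matrix and contractile genes had mostly positive and cell cycle genes mostly negative interactions, although no member of any list was called. The median interaction over all 11763 genes was 0.002, and 5973 of them (50.8%) were positive, with 4.38% positive and 3.91% negative at an unadjusted p under 0.05. Of 27 matrix protein genes, 24 were positive, with a median of 0.079, and 11 positive and 1 negative had an unadjusted p under 0.05, among them Emilin1, an elastic fibre glycoprotein gene (0.16, SE 0.0578), and the small proteoglycan gene Aspn (0.49, SE 0.183). Of 18 collagen genes, 16 were positive, with a median of 0.074, and 4 reached that p, including Col12a1 (0.23, SE 0.0736) and Col6a2 (0.099, SE 0.0389). Of 21 contractile genes, 18 were positive, with a median of 0.074, and 6 positive and 1 negative reached it, including Zyx and Srf, a transcription factor gene for actin genes (0.15, SE 0.0597). Of 21 protease and inhibitor genes, 16 were positive and 6 positive and 1 negative reached it, with Serpine2, an inhibitor of plasminogen activators, at 0.21 (SE 0.0624). These 4 lists had negative medians in both single comparisons, and for a gene below Con with each protein a positive interaction means a combined level less far below Con than the sum. Con, STC1 and TGFb1 libraries enter the interaction with the opposite sign to the single responses. Opposite signs can therefore arise from the spread of these libraries alone, and they are given as a description with no test. The fibroblast marker sum, which shares collagen genes with these lists, was 20320 to 21540 CPM in Con, 19490 to 20270 in STC1, 19060 to 19620 in TGFb1 and 18950 to 20120 CPM in TS, and its part in these medians was not tested. In bulk RNA, fewer cells of a type and less RNA per cell cannot be told apart. With the GC and length trend removed the medians of matrix proteins, collagens, contractile genes and proteases were 0.057, 0.029, 0.041 and 0.032. The collagen median was 0.040 without Con replicate 1 and the protease median 0.041 without STC1 replicate 2.

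Of 32 cell cycle genes, 27 had negative interactions, with a median of -0.069, and 12 negative and 0 positive reached an unadjusted p under 0.05. Cdc6, a replication licensing gene, had responses of 0.17 (adjusted p = 0.0884), 0.22 (adjusted p = 0.0015) and 0.19 (adjusted p = 0.00476) and an interaction of -0.20 (SE 0.0618). Mcm3, a subunit gene of the replicative helicase, had -0.13 (SE 0.0399) and the spindle checkpoint kinase gene Bub1b -0.12 (SE 0.0435). The median was -0.062 with the GC and length trend removed, and lay between -0.086 and -0.053 in the 12 fits without a library. Of 22 ER chaperone genes 18 and of 27 amino acid genes driven by ATF4 22 were negative, the latter with a median of -0.025 that was -0.015 without TS replicate 3, and with Hsp90b1, an ER chaperone gene, at -0.093 (SE 0.0359) and Nupr1, a stress-induced chromatin protein gene, at -0.52 (SE 0.150).

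Of 28 glycolysis and hypoxia genes 13 rose in TS against Con, where 3.18% of all genes did. Their median responses were 0.041, 0.091 and 0.11 with stanniocalcin-1, TGF-β1 and both, and the median interaction was -0.0078, with 0 genes at an unadjusted p under 0.05 in either direction. Bnip3, a mitophagy receptor gene induced by hypoxia, rose by 0.30 with both proteins (adjusted p = 3.37e-06) against single responses of 0.094 and 0.095, with an interaction of 0.11 (SE 0.0596). Of 36 ribosomal protein genes 27 rose in TS, with medians of 0.058, 0.066 and 0.11. Their interaction was negative in 23 and positive in 13, with a median of -0.021 that ranged from -0.035 without TS replicate 1 to -0.0051 without TS replicate 3, and 1 gene in each direction had an unadjusted p under 0.05.

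No signalling gene was called in the interaction. At an unadjusted p under 0.05, reached by 8.29% of all tested genes, were 7 of 38 PI3K/AKT components and 5 of 25 TGF-β targets. The list of TGF-β ligands, receptors and SMADs, which also holds Ltbp1, Ltbp3, Thbs1, Itgav and Furin, had 3 of 15 at that p. Of 38 PI3K/AKT components 26 were positive, with a median of 0.025, and 6 positive and 1 negative reached an unadjusted p under 0.05, among them Pdgfra, the AKT phosphatase gene Phlpp1 (0.26, SE 0.0951) and the insulin receptor substrate gene Irs1 (0.19, SE 0.0782). With the GC and length trend removed the median was 0.00589, and it was 0.013 without STC1 replicate 1, 0.047 without TGFb1 replicate 2 and 0.040 without Con replicate 3. Of 15 TGF-β ligand, receptor and SMAD genes 3 were positive at that p, with Ltbp3, a latent TGF-β binding protein gene, at 0.13 (SE 0.0459). Of 25 TGF-β target genes 4 were positive and 1 negative, with Bmf, a pro-apoptotic gene, at 0.45 (SE 0.144) and the early response gene Klf10 at -0.20 (SE 0.0804), and the median of 0.030 became -0.0087 with the trend removed, 0.020 without STC1 replicate 2 and 0.0535 without STC1 replicate 3. In the list around stanniocalcin, Pappa2, a protease of the PAPP-A family, fell by 0.25 with both proteins (adjusted p = 0.000113) against single responses of -0.19 and -0.28, with an interaction of 0.22 (SE 0.0631). Igfbp4, the classical substrate of PAPP-A, had an interaction of 0.31 (SE 0.114). Of 23 cholesterol synthesis genes 20 were positive, with a median of 0.055 and Srebf2, the regulator of the pathway, at 0.12 (SE 0.0401). That median was 0.026 without TGFb1 replicate 2 and 0.029 without TS replicate 2. Of 19 cytokine genes 2, Lif and Il6, were negative at an unadjusted p under 0.05.

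**Figure D5:**
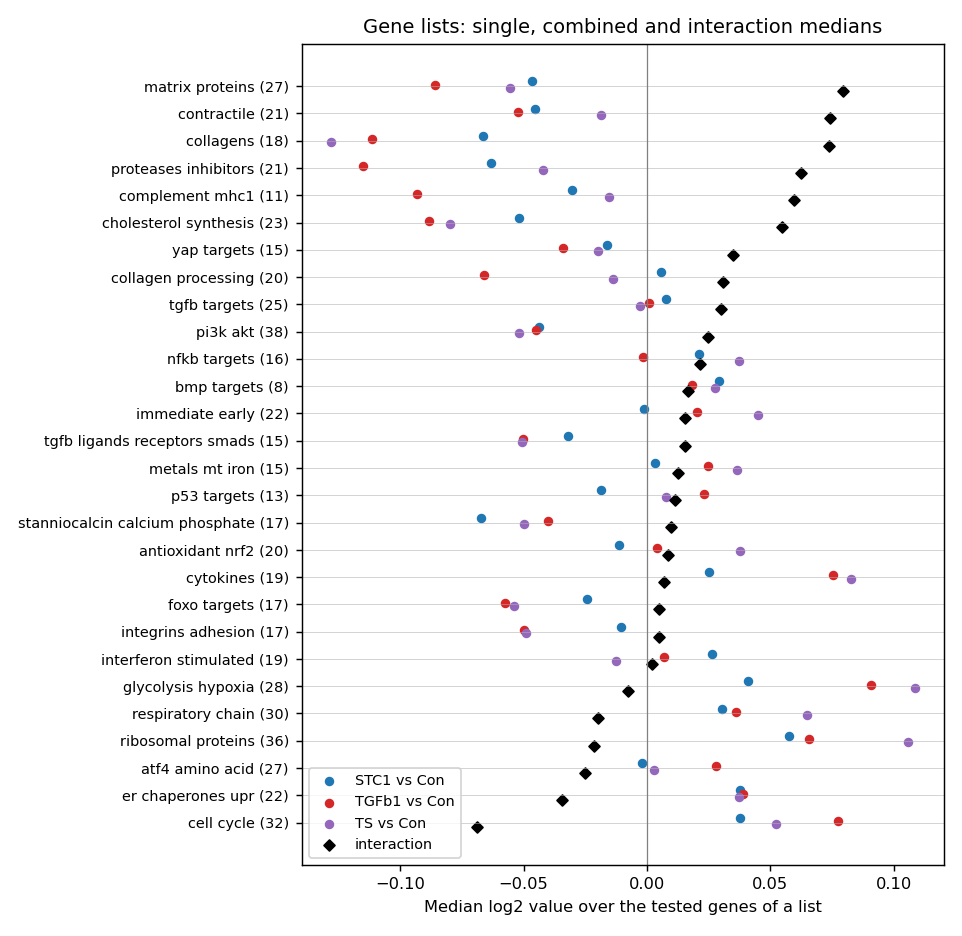
Medians of the log2 responses (STC1, TGFb1 and TS with Con) and of the interaction (diamonds) are plotted on the horizontal axis for 28 gene lists, with the number of tested genes in parentheses. The interaction median is positive for 22 lists and negative for 6, from 0.079 for matrix proteins to -0.069 for cell cycle genes. Lists share some genes, and the responses share Con libraries. Con, STC1 and TGFb1 libraries enter the interaction with the opposite sign to the single responses.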

How the data were processed

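RNA was extracted with TRIzol and poly-A libraries were made with the MGIEasy kit, per the labels' protocols. The authors deposited expected counts for 16300 genes in 12 libraries, and the unit was read from the values, of which between 88.5% and 89.1% per library were whole within 1e-06. Per the submitters' processing notes the build was GRCm39, and the aligner, counting program and strand setting are not given in the sources used here. Gene numbers matched symbols in a GRCm38 RefSeq table for 16177 genes.

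Expected counts were rounded, filtered with filterByExpr (11763 genes) and scaled by TMM. One mean per group was fitted over 12 libraries (8 residual degrees of freedom) and contrasts were tested two-sided in edgeR 4.0.16 (robust quasi-likelihood, R 4.3.3) with Benjamini-Hochberg adjustment over all tested genes and a threshold of 0.05. SE values come from the F statistic. Levels are CPM. No library was a duplicate of another: within groups, chi-square over degrees of freedom was 1.46 to 2.46 for each pair. The pipeline was tested on simulated data.

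Named genes had a mean of at least 50 counts and no clone name. They were the 10 smallest interaction p in each direction, the 8 smallest among sub-additive and among super-additive genes called in TS with Con, 16 genes of the study's subject whatever their count, and up to 3 members of each list. Some genes that this rule selects are not reported here. The genes and lists were chosen with earlier results of these data known. Alternatives were DESeq2 1.42.0, limma-voom 3.58.1, other scalings and filters, the linear CPM scale, the replicate number as a block, leaving out each library, and, added after the data were seen, removal of the length and GC trend of transcripts.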

Additional observations from a re-analysis of the deposited data

How the results depend on the processing

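The interaction called 0 genes with DESeq2, limma-voom, library sizes without TMM, RLE size factors, a mean of at least 50 counts, the linear CPM scale, and the length and GC trend removed (chosen after seeing the data). It called 8 with no low count filter (Adamts1, Rsrp1, Smoc2, Appbp2, Col3a1, Igsf10, Atad1 and Plau, all among 41 genes named for their p or as the study's subject) and between 0 and 2 when a library was left out (0 to 1 of those named): Plau without Con replicate 1 or STC1 replicate 3, Adamts1 without Con replicate 2 or STC1 replicate 1, and Zyx and Gm3696 without Con replicate 3. The cause was not tested. With the replicate number as a block 5 were called (Adamts1, Smoc2, Col3a1, Igsf10 and Plau, 5 of the named genes). The labels do not say that a number marks a shared batch, and for that reason the main fit holds no block. Same-numbered libraries correlated above 0.1 in 6 of 18 pairs, and 9 of 12 libraries correlated best with their own number. These correlations ran from -0.0234 to 0.245. Between libraries of different groups and different numbers they ran from -0.212 (Con replicate 1 and STC1 replicate 2) to 0.145 (Con replicate 3 and STC1 replicate 2). Whether a number marks a shared batch was not tested, so both fits are given. The block called 856 genes in TS with Con, against 713 without it.

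TS with Con called 428 genes with DESeq2, which gave 78.5% sub-additive, and between 276 and 722 when a library was left out, with 59.5% to 82.1% sub-additive. The number of lists with a positive median went from 22 to 14 of 28 with the length and GC trend removed. Among 41 genes, those named for their p and those of the study's subject, 40 kept the sign of the interaction in all 21 alternatives. Genes named only as list members were not counted there. Most of the 41 were chosen for a small p in these same libraries, and the alternatives refit the same counts. A kept sign was therefore likely beforehand and is no independent support. Smad7 changed sign, with -0.021 under the length and GC removal and -0.070 to 0.145 when a library was left out. The SE was 0.145 for Il6, 0.0379 for Fn1 and 0.0882 for Col1a1, at mean counts of 140, 99556 and 41310. The part of depth in the SE was not tested.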

Other observations

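Some genes of other lists had interactions with an unadjusted p under 0.05 and an adjusted p above 0.05 by the edgeR test. Ifi27, an interferon-stimulated gene, had an interaction of 0.27 (SE 0.0824), while Ifit3, named after its values were seen at a mean of 49.2 counts, had -0.59 (SE 0.246), and the median over 19 interferon-stimulated genes was 0.0022. Gadd45a, a growth arrest gene of the FOXO list, had single responses of 0.17 and 0.16, a combined response of -0.016 and an interaction of -0.35 (SE 0.1197). Gpx4, the glutathione peroxidase gene that protects lipids from oxidation, had single responses of -0.023 and -0.015, a combined response of 0.083 and an interaction of 0.12 (SE 0.0422). The immediate early genes Ier3, Fosl1 and Dusp6 had interactions of -0.28 (SE 0.103), -0.14 (SE 0.0555) and -0.16 (SE 0.0670), and Fosl1 (adjusted p = 0.00223) and Dusp6 (adjusted p = 0.00188) rose in TS against Con. Cd44, the hyaluronan receptor gene, rose by 0.16 with both proteins (adjusted p = 0.000252), with an interaction of -0.12 (SE 0.0409). Among complement and MHC class I genes 3 of 11 were positive at an unadjusted p under 0.05, where 4.38% of all tested genes were. Among them was H2-K1 at 0.20 (SE 0.0660), a gene with similar paralogs whose count is uncertain. Of 13 p53 target genes 0 reached an unadjusted p under 0.05, where 8.29% of all tested genes did.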
